A study of Mus musculus with 9 samples.

Results

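TcMar and MULE elements are DNA transposons, mobile elements that move as DNA and not through an RNA copy. The members described here were all copies whose repeat family started with TcMar or MULE within the class DNA, 5799 of the 623916 transposable element (TE) copies in the deposited table, with the families kept apart. They comprised 5271 TcMar-Tigger, 237 TcMar-Tc2, 189 TcMar-Mariner and 59 MULE-MuDR copies, 35 copies of the uncertain family TcMar?, 7 of TcMar and 1 of TcMar-Pogo, and they carried 62 repeat names (subfamilies). The RNA came from C57BL/6 mouse embryonic stem cells (ESCs), cultured cells of the early embryo, in 9 libraries that form 3 groups of 3. G4 Terc-/- ESCs came from blastocysts of later-generation Terc-/- parents, G1 Terc-/- ESCs were the first generation without Terc, and wild-type (WT) ESCs carried the gene, which encodes the RNA template of telomerase. Feeder cells had been removed before RNA was taken, and the comparison asks how TE transcripts differ as telomeres shorten over generations.

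An intact Tc1/mariner element encodes a transposase that binds the inverted repeats at both ends, cuts the element out and inserts it at a TA dinucleotide. Tigger elements belong to the pogo branch, MARNA, MMAR1 and MADE2 to the mariner branch, and Kanga elements and MER104 to Tc2, while Ricksha belongs to the Mutator-like (MULE) elements. All are old in the mouse, and no active copy is known there. Several mammalian genes descend from such transposases, among them Jrk, Jrkl, Tigd2 and Pogk.

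In those genes, member copies lay wholly in protein-coding sequence, and 11 exonic members in all were placed as coding. Copies named Tigger10 made up coding sequence of Jrk (1552 bases), Jrkl (630 bases) and Tigd2 (730 bases), and a Kanga2_a copy of 295 bases lay in that of Pogk. The same codon-aligned stretch of 138 bases is shown for the Tigger10 copies. It was chosen as the longest stretch without a gap in local alignments through the Jrkl copy, trimmed to whole codons. Aligned in pairs, Jrkl and Tigd2 matched up over 547 bases, Jrk and Jrkl over 293, and Jrk and Tigd2 over 77. The sequences are from the GENCODE M21 transcripts (GRCm38, the mm10 assembly), at chr15:74706565-74706702 on the minus strand for Jrk, chr9:13244800-13244937 on the minus strand for Jrkl and chr6:59210867-59211004 on the plus strand for Tigd2. Capitals mark the 65 bases (47.1%) that all 3 share.
Tigger10 in Jrk: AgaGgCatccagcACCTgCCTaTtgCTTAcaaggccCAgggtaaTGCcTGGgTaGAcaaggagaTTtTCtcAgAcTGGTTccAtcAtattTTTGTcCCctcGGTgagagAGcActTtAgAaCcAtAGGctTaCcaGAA
Tigger10 in Jrkl: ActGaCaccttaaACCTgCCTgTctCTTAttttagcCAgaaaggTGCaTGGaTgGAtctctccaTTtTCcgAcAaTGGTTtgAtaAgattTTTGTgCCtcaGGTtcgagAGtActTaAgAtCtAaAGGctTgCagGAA
Tigger10 in Tigd2: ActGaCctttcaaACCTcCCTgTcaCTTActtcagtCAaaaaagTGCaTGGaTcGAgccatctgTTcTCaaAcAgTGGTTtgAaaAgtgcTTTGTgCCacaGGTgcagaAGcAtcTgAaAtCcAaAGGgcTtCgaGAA

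Over this stretch the Jrkl and Tigd2 copies shared 97 bases (70.3%), the Jrk and Jrkl copies 84 (60.9%) and the Jrk and Tigd2 copies 72 (52.2%). The stretch was picked for its alignment, so these shares do not describe the whole copies.

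The 3 Tigger10 copies differed in how their counts moved between the groups. The copy in Jrk had 72, 86 and 91 counts in G4, 51, 42 and 41 in G1, and 32, 45 and 63 in WT. It rose in G4 against WT (log2 fold change 0.76, adjusted p = 0.00293, edgeR quasi-likelihood test with Benjamini-Hochberg adjustment over all 13278 copies tested), with every G4 library above every WT library. The copy in Jrkl had 30, 27 and 21 counts in G4, 24, 45 and 40 in G1, and 40, 50 and 64 in WT, and it fell in G4 against WT (log2 fold change -1.04, adjusted p = 0.00176, edgeR), again without overlap. The copy in Tigd2 had 40, 83 and 65 counts in G4, 61, 76 and 61 in G1, and 55, 64 and 82 in WT, and was not called (log2 fold change -0.18, adjusted p = 0.482, edgeR). In a list of 9 descendants of pogo and Tigger transposases, counts were summed over the exonic repeats of each gene, which in Jrk, Jrkl and Tigd2 are nearly or wholly the counts of the Tigger10 copies themselves and so are no separate evidence. Of the 5 tested, Jrk rose and Jrkl fell in G4 against WT and 3 were not called, beside 48.4% of 4735 genes called in either direction at this level. Among 13 descendants of other DNA transposases, 4 were tested. Zbed5 (log2 fold change 1.09) and Harbi1 (1.02) rose in G4 against WT and Zbed6 fell (-0.75).

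Library totals ran from 918879.3 to 1137257.5 counts, of which members took 7217.3 to 8780.0. Total RNA was used, and the methods call the replicates of a line biological but give another number of them than the 3 libraries found here. Neither they nor the labels say that these libraries were separate cultures, so p-values measure the spread between these libraries, and line and generation cannot be told apart. Terc overlaps no repeat copy, so the groups rest on the labels. Repeats in the exons of marker genes checked the cell type. The summed level for 12 of 24 pluripotency genes with such repeats was 24600 to 28700 CPM (counts scaled to library size and TMM factors) in G4, 12800 to 13600 in G1 and 8460 to 8920 in WT. Tdgf1, Tfcp2l1 and Nanog held most of this sum. Of the 11 tested genes, 9 rose in G4 against WT (edgeR), and Lin28a and Fbxo15 were not called. Over all genes tested by their exonic repeats, 48.4% of 4735 were called in either direction in this contrast. For 8 of 18 primitive endoderm genes the summed level was 140 to 174 CPM in G4, 2020 to 2140 in G1 and 4540 to 4590 in WT. Col4a2 held most of this sum in G1 and WT, with 73 to 111 counts in G4, 1491 to 1683 in G1 and 3303 to 3606 in WT. Gata4, which drives that lineage, had 12 to 28 counts in G4, 304 to 356 in G1 and 666 to 796 in WT. Of the 5 tested genes of this list, 4 fell in G4 against WT (edgeR) and 1 rose. The gene that rose was Sparc, with 33 to 57 counts in G4 and 8 to 13 in WT. For 6 of 19 fibroblast genes the summed level was 102 to 111 CPM in G4, 83.5 to 119 in G1 and 43.8 to 68.1 in WT, so that both Terc-/- groups lay above WT. Of its 2 tested genes, the collagen gene Col1a1 rose in G4 against WT (log2 fold change 0.95, adjusted p = 3.61e-05, edgeR) and in G1 against WT (0.65, adjusted p = 0.0203), and Pdgfrb was not called in either. The neuroectoderm and mesoderm lists, with 1 and 3 measured genes, stayed at or below 12.8 CPM in all libraries. The pluripotency and primitive endoderm levels differ between the groups in every comparison that follows, and the fibroblast level in both comparisons with WT. Fewer cells of a type and less RNA per cell cannot be told apart in bulk RNA, and the part of these marker levels in the results was not tested.

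Most member copies gave few counts, and most member counts came from exons. Of the 5799 copies, 1623 (28.0%) had at least 5 counts over all 9 libraries, against 29.5% of all copies. Exonic copies (at least 0.5 of the length in annotated exons) were 460 of the members, or 7.93%, but held 59.9% of member counts. Intronic copies were 4465 (77.0%) and held 34.8%, 417 copies within 5000 bp of a gene held 3.7%, and 457 farther copies held 1.58%. For all TE copies, the exonic 6.91% held 47.4% of counts, and for the hAT DNA transposons the exonic 9.05% held 67.5%. Of exonic members, 193 (42.0%) lay on the strand of their gene, against 48.4% of all exonic copies. The families differed in this respect: exonic copies held 83.2% of TcMar-Mariner counts but 5.35% of MULE-MuDR counts, of which 86.9% were intronic. A single copy, in an intron of Klhl13 and partly in a 5′ UTR exon, held 81.5% of the MULE-MuDR counts, so this contrast rests on where that copy was placed. Member copies had a median divergence from their consensus of 29.2%, against 25.6% for hAT and 21.5% for all copies.

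**Figure D1:**
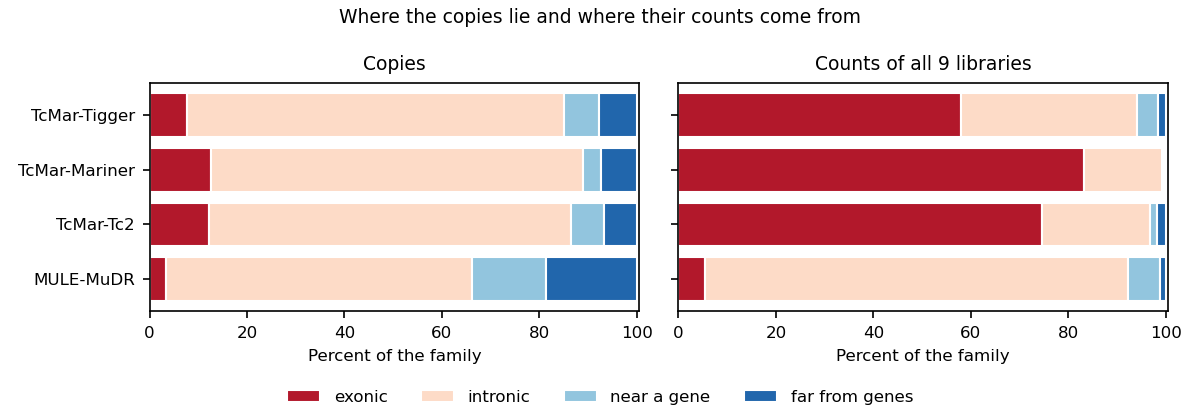
Share of copies (left) and of counts over all 9 libraries (right), in percent of each family, that was exonic, intronic, within 5000 bp of a gene or farther away. Exonic copies are a small share of copies in all 4 families, and hold most counts in each family except MULE-MuDR, where intronic copies hold 86.9%. In MULE-MuDR a single copy in Klhl13, placed as intronic but partly in a 5′ UTR exon, holds 81.5% of the counts.

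The share of counts that all members took together differed between the groups by less than the spread between libraries, while single families moved apart. They held 0.773% ± 0.0189 of library counts in G4, 0.770% ± 0.00639 in G1 and 0.770% ± 0.00734 in WT (SD, n = 3). MULE-MuDR rose in G4 against WT, TcMar-Mariner and TcMar-Tc2 fell, and TcMar-Tigger, which holds most member counts, was not called. The other 3 families were too low to test. This made 3 of 4 tested member families called in G4 against WT, beside 55.6% of the 36 families tested.

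MULE-MuDR took 0.0374%, 0.0434% and 0.0442% of counts in the G4 libraries, 0.0122%, 0.0128% and 0.0112% in G1, and 0.00978%, 0.00826% and 0.00850% in WT. No group overlapped another. Its log2 fold change was 2.23 (SE 0.11, adjusted p = 1.66e-16, edgeR) in G4 against WT, 0.48 (adjusted p = 0.0187) in G1 against WT and 1.75 (adjusted p = 1.24e-14) in G4 against G1. The call in G1 against WT was the only one among the member families in that comparison, beside 19.4% of all families, and it was lost without WT replicate 2 (adjusted p = 0.0838), WT replicate 3 (0.0795) or G1 replicate 1 (0.0626). In G4 against G1, 3 of the 4 families were called, beside 55.6% of all families.

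The Mariner and Tc2 falls were much smaller than the MULE-MuDR rise. TcMar-Mariner had 681, 729 and 747 CPM in G4, 817, 809 and 788 CPM in G1, and 880, 888 and 821 CPM in WT, so that each G4 library lay below each G1 and WT library (log2 fold change -0.26, SE 0.06, adjusted p = 0.000563, edgeR, in G4 against WT). Of 13 tested Mariner copies, 6 fell and 1 rose in G4 against WT. The falls included MMAR1 copies in Tulp4 and a MARNA copy in the 3′ UTR of Mob1b. The Mob1b copy had 41, 38 and 52 counts in G4 and 122, 97 and 90 in WT. The family sum was not tested without these copies. TcMar-Tc2 averaged 0.0297% ± 0.00291 of counts in G4, 0.0368% ± 0.000839 in G1 and 0.0379% ± 0.00183 in WT (SD, n = 3), and fell by 0.37 on the log2 scale in G4 against WT (adjusted p = 0.0005, edgeR). TcMar-Tigger averaged 0.628% ± 0.0213 in G4, 0.641% ± 0.00891 in G1 and 0.635% ± 0.00677 in WT, and its log2 fold change in G4 against WT was -0.03. With copies outside exons only (less than 0.5 of the length in exons, here and below), neither Mariner (-0.10, adjusted p = 0.547, edgeR) nor Tc2 (-0.20, adjusted p = 0.26) was called. TcMar-Tigger was called as a small fall there (-0.11, adjusted p = 0.0224).

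**Figure D2:**
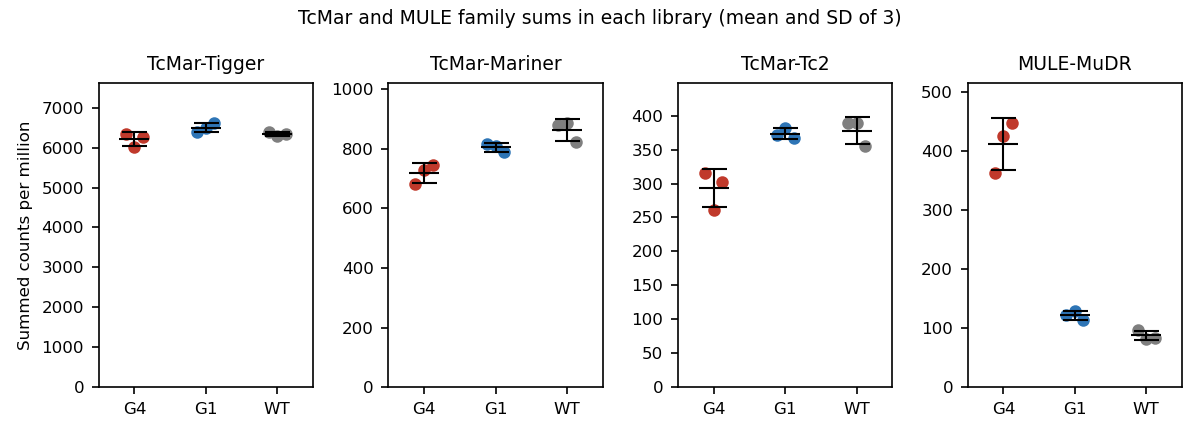
Summed CPM of the 4 tested families per library (points), with the mean and SD of 3 as bars, for G4, G1 and WT from left to right on axes that start at 0. MULE-MuDR averaged 413 CPM in G4, 122 in G1 and 88.2 in WT, while the 3 other families varied far less.

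The ratio of TcMar-Tigger to hAT-Charlie, the most abundant other DNA transposon family compared, was compared within each library. Its log2 value averaged -1.94 in G4, -1.88 in G1 and -1.97 in WT. The difference was 0.0369 in G4 against WT (two-sided exact permutation p = 0.4), 0.0928 in G1 against WT (p = 0.1, exact) and -0.0559 in G4 against G1 (p = 0.2, exact), where 0.1 is the smallest p that 3 against 3 libraries allow.

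The MULE-MuDR rise came from 1 copy. The Ricksha_c copy at chrX:23361524-23361715 on the minus strand, in an intron of Klhl13 and partly in a 5′ UTR exon, had 315, 421 and 427 counts in G4, 82, 90 and 66 in G1, and 64, 44 and 44.5 in WT. Klhl13 encodes a substrate adaptor of a cullin ubiquitin ligase. The copy rose by 2.85 on the log2 scale in G4 against WT (SE 0.15, adjusted p = 2.41e-14, edgeR), by 0.62 in G1 against WT (adjusted p = 0.02) and by 2.23 in G4 against G1 (adjusted p = 1.46e-12). Other repeats of Klhl13 were high in G4 as well: 49 of them summed to 62, 39 and 42 counts in G4, 5, 4 and 9 in G1, and 8, 6 and 6 in WT. The 6 other rows within 5000 bp had at most 2 counts in any library.

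The remaining Ricksha_c copies did not share the rise. Together the 42 others had 12, 19 and 30 counts in G4, 26, 37 and 33 in G1, and 24, 29 and 33 in WT, so G4 and WT overlapped. Without the Klhl13 copy, the subfamily had a log2 fold change of -0.65 in G4 against WT (adjusted p = 0.0636, edgeR) and fell by 0.81 in G4 against G1 (adjusted p = 0.0221). A row under a separate family name, MuDR, covers 154 bases of the Klhl13 copy and has nearly the same counts (316, 421 and 428 in G4), so the same reads stand in both rows.

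Among subfamilies, falls outnumbered rises in G4 against WT. Of 48 tested member subfamilies, 4 rose and 15 fell, beside 23.2% rising and 23.4% falling among 854 subfamilies, and the median log2 fold change was -0.23 against 0.0 over all. In G1 against WT, 2 rose and 1 fell (5.74% and 6.67% of all subfamilies). In G4 against G1, 3 rose and 17 fell (19.7% and 22.8% of all).

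The rises in G4 against WT were led by Ricksha_c (log2 fold change 2.20), followed by Tigger8 (1.14, SE 0.29, adjusted p = 0.00257, edgeR) and MER44C (0.67, SE 0.11, adjusted p = 5.21e-05). MER127 also rose but averaged 8.44 counts per library, and is named outside the rule, after its value was seen. Tigger8 had 24, 48 and 49 counts in G4, 19, 19 and 26 in G1, and 15, 15 and 19 in WT, so G4 did not overlap WT. A copy in the 3′ UTR of Igfbp4, which encodes a binding protein of insulin-like growth factors, held 67.5% of its counts. MER44C had 153.92, 159 and 170 counts in G4, 95.5, 124.45 and 96 in G1, and 92, 85 and 96 in WT, and a copy in the 3′ UTR of Fam185a held 78.8% of them.

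The falls were led by Tigger16a, Tigger19a and MER104 among subfamilies with at least 20 counts per library. Kanga11a fell more (-1.45, adjusted p = 0.00938, edgeR) but averaged 11.89 counts per library, and is named outside the rule, after its value was seen. It was still called without its leading copy (-1.58, adjusted p = 0.0259). Tigger16a had 34, 32 and 48 counts in G4, 55, 69 and 65 in G1, and 86, 66 and 79 in WT (log2 fold change -1.17, SE 0.18, adjusted p = 1.56e-05, edgeR), and 79.4% of its counts lay in 1 copy in the 3′ UTR of Sesn3, a stress-responsive sestrin. Tigger19a had 375, 412 and 411 counts in G4, 505, 625 and 519 in G1, and 650, 629 and 644 in WT (-0.84, SE 0.07, adjusted p = 2.15e-09), and 50.0% lay in the 3′ UTR of Jade1, a subunit of a histone acetyltransferase complex. Every G4 library was below every WT library in both. MER104 (-0.74), Tigger14a (-0.68), MADE2 (-0.65), MamRep137 (-0.63), MMAR1 (-0.61) and Tigger17c (-0.59) also fell, with adjusted p from 6.52e-05 to 0.025. The subfamily with the most counts, MER2, had 1519 copies and was not called (log2 fold change 0.02, adjusted p = 0.804).

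The subfamily calls were also tested without the leading copy. Of the 19 called in G4 against WT, 17 could be tested without the copy with the most counts, and 7 were still called in the same direction, 10 were not, and 5 had the other sign. Those 7 included Tigger19a (-0.65, adjusted p = 2.27e-06, edgeR), Tigger7 (-0.38, adjusted p = 0.000116), MARNA (-0.37, adjusted p = 0.00197) and MMAR1 (-0.40, adjusted p = 0.00598). Tigger16a (-0.16), MER44C (-0.19), Tigger8 (0.23) and Tigger14a (0.17) were not called without it, nor were Tigger12 (-0.65, SE 0.41, against -0.54 with it) and MER104 (-0.47, SE 0.23, against -0.74), whose folds stayed negative. MER2 without its leading copy, in the 3′ UTR of Idi1, was at -0.16 (adjusted p = 0.0153). In G4 against G1, 8 of the 19 that could be tested were still called in the same direction. Removing the leading copy can leave other copies of the same gene in the sum, as for MMAR1 in Tulp4. Outside exons, in G4 against WT, Tigger19a (-0.56, adjusted p = 0.0427, edgeR) and Tigger7 (-0.28, adjusted p = 0.00944) were called. MMAR1 (-0.14, adjusted p = 0.438) and MARNA (0.02, adjusted p = 0.967) were not.

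**Figure D3:**
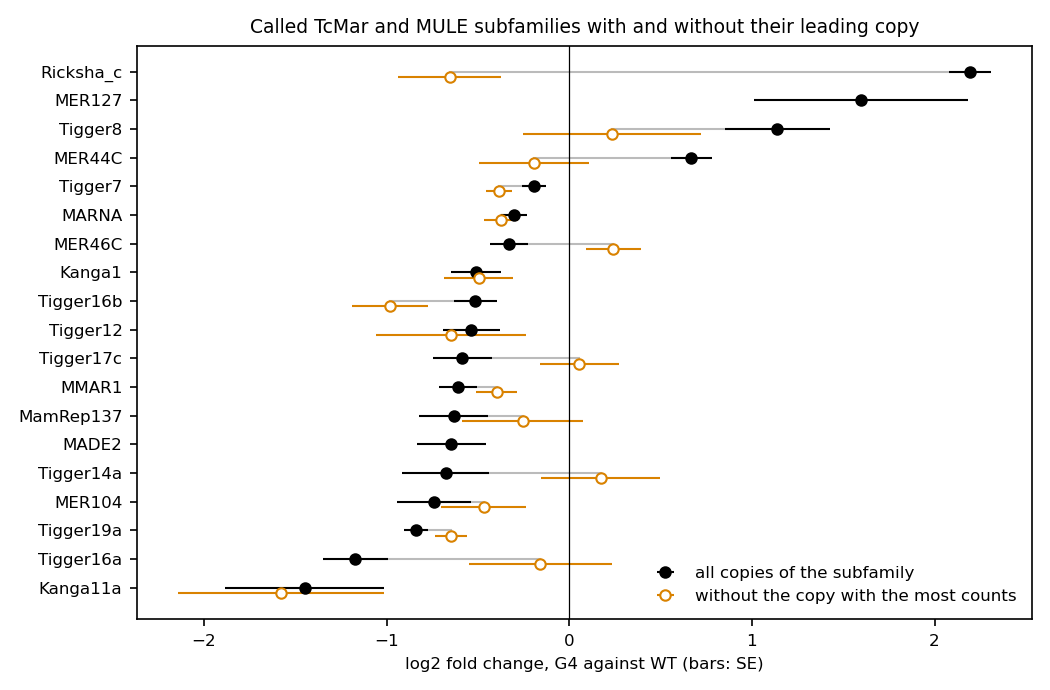
Log2 fold change in G4 against WT of the 19 called subfamilies (filled, with SE) and of the same sums without the copy with the most counts (open, with SE); no open point is drawn where the rest could not be tested. Ricksha_c is at 2.20 with and at -0.65 without its Klhl13 copy, while Tigger19a stays below 0 at -0.65.

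Among single copies, too, falls outnumbered rises in G4 against WT. Of 124 member copies that passed the filter on low counts, 20 rose and 40 fell in G4 against WT, beside 21.3% rising and 21.3% falling among 13278 copies, and the median log2 fold change was -0.10 against -0.02 over all. The copies that passed comprised 99 exonic, 17 intronic, 7 near a gene and 1 far from genes. In G1 against WT, 4 rose and 2 fell (2.41% and 4.36% of all copies). In G4 against G1, 18 rose and 33 fell (19.0% and 19.2% of all). By place, 11 copies rose and 28 fell among 78 tested in 3′ UTRs, 2 rose and 4 fell among 17 in introns, and 3 rose and 2 fell among 7 near genes. By family, 18 rose and 30 fell of 99 tested Tigger copies, 1 rose and 6 fell of 13 Mariner copies, and 0 rose and 4 fell of 11 Tc2 copies by edgeR. No share over all TE copies was taken for these places or families, and some called copies share a gene. The counts by place and family are thus description only.

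A Tigger15a copy in the 3′ UTR of Dkk3, a secreted Dickkopf-family protein, had 40, 50 and 58 counts in G4, 14, 3 and 13 in G1, and 10, 2 and 10 in WT (log2 fold change 2.65, SE 0.40, adjusted p = 8.04e-06, edgeR). A Tigger1 copy in the 3′ UTR of Helb, a DNA helicase, had 43, 63 and 48 counts in G4, 12, 16 and 12 in G1, and 20, 13 and 13 in WT (1.66, SE 0.27, adjusted p = 1.69e-05). In both, G4 stood clear of the other libraries and G1 overlapped WT. A MER2B copy in Gm11627 (2.93), of whose 127 bases 69 were coding, and copies in Slc47a1 (MER47B, 2.63), Mmgt2 (MER2, 1.76), Xylb (Tigger1, 1.62) and Pfkp (MER46C, 1.62) completed the largest rises. Slc47a1 encodes an exporter of organic cations, Xylb xylulose kinase and Pfkp a phosphofructokinase of glycolysis.

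The copy with the most MER2 counts rose too. In the 3′ UTR of Idi1, an isomerase of the mevalonate pathway that leads to cholesterol, it had 279.75, 285.39 and 306.04 counts in G4, 87.64, 104.67 and 87.55 in G1, and 90.7, 113.71 and 123.46 in WT (log2 fold change 1.34, SE 0.12, adjusted p = 2.75e-09, edgeR). Its values are not whole, so some of its reads were shared with other copies. The Tigger7 copy in the 3′ UTR of Erbb3, a receptor of the EGF receptor family, had 110, 134 and 111 counts in G4, 61, 105.44 and 59 in G1, and 63, 41 and 55 in WT (1.09, SE 0.18, adjusted p = 2.86e-05). G4 was above WT in all libraries of both copies.

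The largest fall was that of a MER2 copy in the 3′ UTR of Ankrd33b, with 0, 2 and 3 counts in G4, 2, 5 and 5 in G1, and 17, 14 and 16 in WT (log2 fold change -3.22, SE 0.64, adjusted p = 0.000222, edgeR). A Tigger7 copy in an intron of Abcb1b, a drug efflux pump, had 2, 4 and 1 counts in G4, 21, 11 and 8 in G1, and 23, 12 and 23 in WT (-3.05, SE 0.55, adjusted p = 6.94e-05). The G4 and WT libraries did not overlap in either copy. Further copies in introns fell in Stc2, a secreted stanniocalcin (MER2, -2.82), and in Nckap1, a subunit of the actin-regulating WAVE complex (Tigger7, -2.26). A Tigger5b copy in Trip11, a Golgi tether, had 6, 8 and 6 counts in G4, 20, 13 and 25 in G1, and 43, 29 and 33 in WT (-2.45). The 3 tested MMAR1 copies in exons of Tulp4 (-2.24, -2.15 and -1.45) and a Tigger17c copy in the non-coding gene AC131065.2 (-2.16) fell as well. The Jade1 copy of Tigger19a had 159, 190 and 192 counts in G4, 267, 314 and 265 in G1, and 341, 332 and 327 in WT (-0.96, SE 0.10, adjusted p = 4.3e-08).

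**Figure D4:**
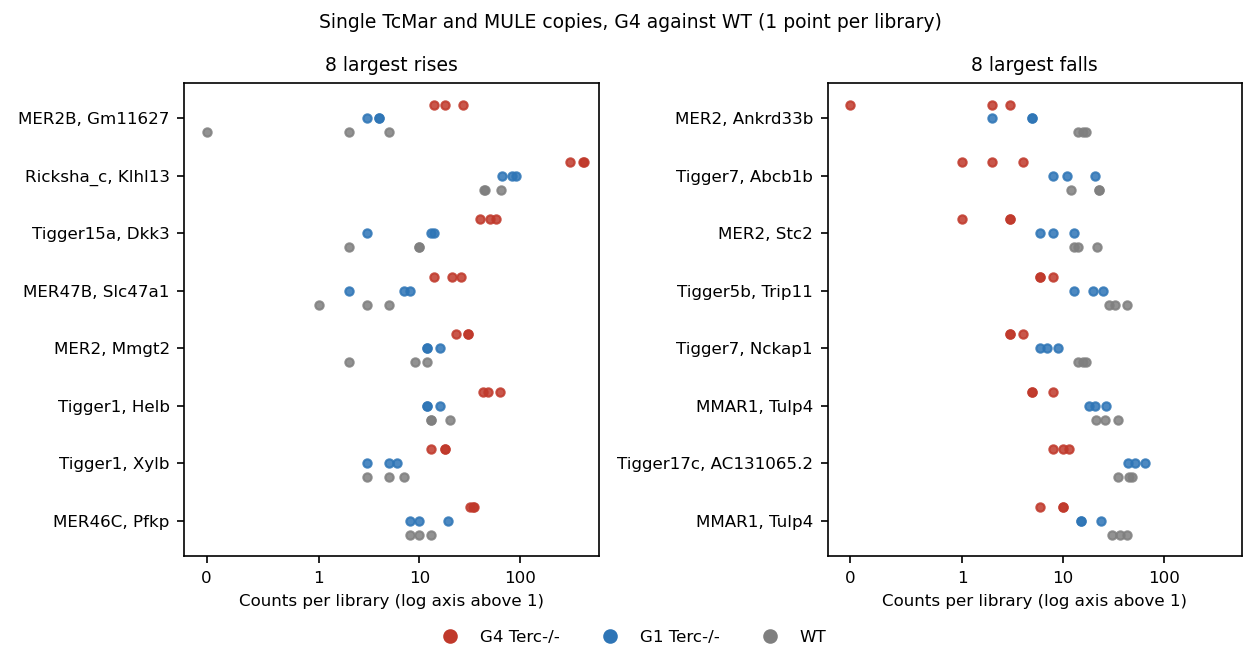
Counts per library of the 8 largest rises (left) and 8 largest falls (right) among called member copies whose G4 and WT libraries do not overlap, with 1 point per library for G4, G1 and WT from top to bottom in each row, on an axis that is linear up to 1 and logarithmic above. The Ricksha_c copy in Klhl13 reaches 427 counts in G4, and the falling copies have at most 11.55 counts in any G4 library.

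Few copies changed in G1 against WT. Neighbouring Tigger5 and Tigger5b copies in the 5′ UTR of Zfp57, a zinc finger protein that maintains genomic imprints, rose by 0.77 (adjusted p = 0.000654, edgeR) and 0.65 (adjusted p = 0.0327). The Tigger5 copy had 155, 183 and 143 counts in G1 and 95, 87 and 97 in WT, without overlap, and 127, 113 and 113 in G4. The Tigger12 copy in the 3′ UTR of Adipor1, an adiponectin receptor, rose by 0.58 (adjusted p = 0.03), while the MER2 copy in Ankrd33b (-1.96, adjusted p = 0.0291) and an MMAR1 copy in Tulp4 (-1.06, adjusted p = 0.0161) fell. The number of calls in this comparison ran from 1 to 6 when single libraries were left out, and was 1 without WT replicate 3, 2 without G1 replicate 1 or G1 replicate 2, and 3 without WT replicate 2 or G1 replicate 3.

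Called copies mostly moved in the same direction as the other repeats of the gene that holds them. Of 55 called member copies in genes in G4 against WT, 46 lay in a gene whose other repeats could be tested as a sum. For 37 of these the sum was called in the same direction, for 2 in the opposite direction and for 7 it was not called, beside 40.0% of 10568 genes called in either direction. Called copies of the same gene share the same sum, as in Tulp4, Trip11 and Dcaf10. The 46 are thus copies and not separate genes, and the share of genes is not a like measure. In Helb the other repeats were at 1.61 and the copy at 1.66, in Dkk3 at 2.54 and 2.65, and in Ankrd33b at -3.48 and -3.22. The opposite cases were a Kanga1b copy in Dph5, a diphthamide synthesis gene, at -2.02 where the other repeats rose by 0.57, and a Tigger10 copy in the 3′ UTR of Eri2 at -0.46, where the other repeats rose by 0.76. The Stc2 copy fell where the other repeats were not called (-0.63, adjusted p = 0.0751, edgeR). In G4 against G1 the same direction was called for 27 of 39, and in G1 against WT for 4 of 5. No share over all genes was taken for these contrasts.

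**Figure D5:**
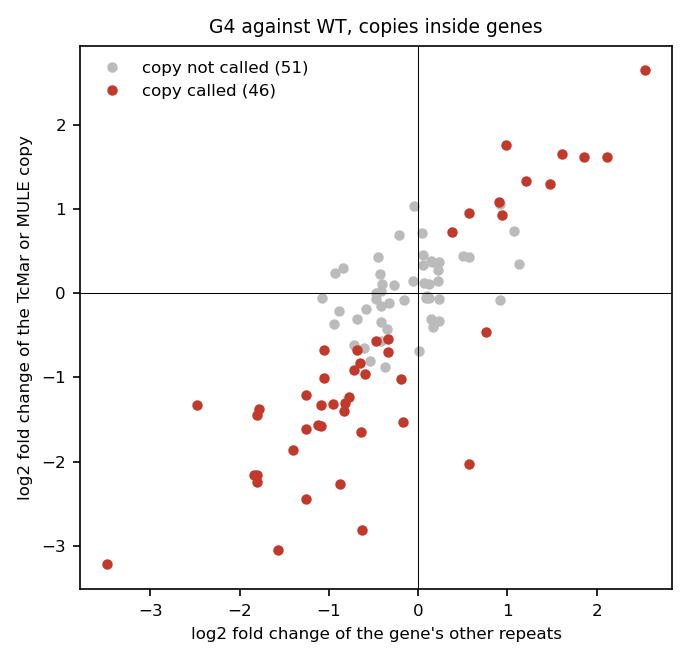
Log2 fold change in G4 against WT of 97 member copies inside genes (vertical) against that of the summed other repeats of the same gene (horizontal), with the 46 called copies in red and the 51 others in grey. The called copies lie mostly in the lower left and upper right, and the Klhl13 copy is not drawn because a row of another family holds the same reads.

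Few members that were not exonic could be tested. Among copies outside exons, 5 rose and 6 fell of 25 in G4 against WT, beside 21.1% rising and 19.4% falling among 6035 copies outside exons. Summed over such copies, 3 subfamilies rose and 4 fell of 42, beside 19.9% rising and 11.9% falling among 774. Such copies can still lie partly in an exon. Ricksha_c, at 2.51 in this subset, keeps its Klhl13 copy, which does. Only 1 member copy farther than 5000 bp from any gene passed the filter.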

How the data were processed

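Per the labels, TruSeq libraries of the 9 ESC samples were processed with FastQC 0.11.9, STAR 2.5.3a and featureCounts on mm10. The deposited table gives estimated counts (expected counts) per TE copy, as the authors made them, and 144 members hold a value that is not whole. How shared reads were divided is not given in the sources used here. A second deposited table, of normalized values, was not used. The columns headed Control were read as the WT libraries.

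Member copies were placed on GENCODE M21 with bedtools 2.31.1. The main test was the quasi-likelihood test of edgeR 4.0.16 (R 4.3.3), fitted to all 9 libraries without a block, on counts rounded to whole numbers. Low features were removed with filterByExpr, and TMM factors were taken over library totals of 918879.3 to 1137257.5 counts. Copies, subfamilies, families and genes were each fitted over the whole table. Tests were two-sided, with Benjamini-Hochberg adjustment within a level and contrast and calls at an adjusted p under 0.05. Divergence was read from the copy identifiers, and sequences were aligned locally with Biopython 1.88.

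Members and lists were chosen with earlier results of these data known. Subfamilies had to be called and average 20 counts or more in a library to be named, and copies had to be called without overlap between groups. From each, the 8 strongest rises and the 8 strongest falls were taken for G4 against WT, and 4 of each for both other contrasts. The 6 subfamilies with the most counts, leading copies and called members of the gene lists were named too. Copies in coding sequence, further called subfamilies, the MMAR1 copy at -1.45 in Tulp4, the MARNA copy in Mob1b and the case in Eri2 were added after their values were seen. Alternatives were DESeq2 1.42.0 size factors and Wald test, library totals, at least 5 counts in all, fits of 2 groups, a replicate block, leaving out each library, a fold over 1.5 with an unadjusted p, and subsets of copies.

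In a simulation of G4 against WT, the test found 11.9% of copies changed 1.5-fold, 34.3% of those changed 2-fold and 92.4% of those changed 4-fold among 13278 copies. For subfamilies it found 80.6%, 98.5% and 100% among 854. The simulation changed only a small part of the features and gave all of them the same spread. In it, a change of 2-fold or less in a single copy was often missed. In the data 21.3% of copies rose and 21.3% fell, so the adjustment was less strict there. The shares found are thus not detection rates for these data.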

Additional observations from a re-analysis of the deposited data

How the results depend on the processing

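Values are log2 fold changes or counts of calls, and the cause of a change was not tested unless the subset itself removes the copy concerned. Outside exons, calls numbered 11, 0 and 9 for copies and 7, 0 and 3 for subfamilies (edgeR, with the contrasts in the order G4 against WT, then G1 against WT, then G4 against G1, here and wherever 3 values are given; for the counts of 0, 4 copies and 2 subfamilies had an unadjusted p under 0.05). There MULE-MuDR was at 0.517 in G1 against WT, Mariner at -0.0982, 0.057 and -0.155 in the 3 contrasts, Tc2 at -0.203 in G4 against WT and -0.102 in G4 against G1, and Tigger at -0.11 (called) in G4 against WT and -0.0507 in G1 against WT. In G4 against WT, MER44C was at -0.559, Tigger17c at 0.0997, MER2 at -0.134, MARNA at 0.0192 and Tigger15a at 0.125, and in G4 against G1 MER44C at -0.704. The log2 ratio of Tigger to hAT-Charlie was 0.00255 in G1 against WT and 0.0507 in G4 against G1.

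Over 5000 bp from genes, 1 copy and 2 subfamilies could be tested; calls numbered 0, 0 and 1 for copies and 0, 0 and 0 for subfamilies (edgeR; at an unadjusted p under 0.05, 1, 0 and 1 copies and 0, 1 and 1 subfamilies). Tigger was at -0.187 in G1 against WT and 0.0314 in G4 against G1, MER2 at -0.305 and Tigger7 at 0.44 in G4 against WT, and the ratio at -0.257 in G1 against WT and 0.311 in G4 against G1. With whole-valued copies, which leave out the Klhl13 copy, MULE-MuDR was at -0.0678, 0.203 and -0.271 in the 3 contrasts, Mariner at -0.148 in G4 against G1, and Tigger at -0.133 in G4 against WT and -0.168 in G4 against G1 (both called). In G4 against WT, Ricksha_c was at -0.654, MER44C at -0.194, Tigger17c at 0.138 and MER2 at -0.214, and in G4 against G1 Ricksha_c at -0.798 and MER44C at -0.464. The ratio was -0.0452 in G4 against WT and -0.125 in G4 against G1. Outside chromosome 6, MULE-MuDR in G1 against WT was 0.468, Mariner in G4 against G1 -0.119 and Tigger in G4 against WT 0.00238.

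Without the leading copy, Ricksha_c was at -0.654, MER44C at -0.193, Tigger14a at 0.172, Tigger17c at 0.0544 and MER2 at -0.161 in G4 against WT, and Ricksha_c at -0.813, Tigger8 at -0.503 and MER44C at -0.502 in G4 against G1. The rule of a fold over 1.5 with an unadjusted p gave 14 copies and 1 subfamily in G1 against WT and 12 subfamilies in G4 against G1. The DESeq2 Wald test gave 2 copies in G1 against WT, Tc2 at 0.0393 in G1 against WT, and Tigger at 0.0195, 0.0901 (called) and -0.0706 (called) in the 3 contrasts. DESeq2 size factors gave Tc2 at 0.0406 in G1 against WT and Tigger at 0.0196 in G4 against WT and 0.0902 (called) in G1 against WT. Library totals gave Tigger5 at 0.00385 and Tigger15a at 0.0969 in G4 against WT. With at least 5 counts, 1 copy was called in G1 against WT and Tigger in G4 against G1 was -0.0928 (called), and with the 2 groups alone it was -0.0889 (called).

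Over the tested copies, replicates with the same number did not deviate together (correlations from -0.015 to 0.021). These values show no pairing by number, but noise in low counts could hide one. With a replicate block, MULE-MuDR in G1 against WT was 0.478 (adjusted p = 0.0518, edgeR), the named Tigger12 copy in Adipor1 and MER2 copy in Ankrd33b were no longer called in G1 against WT, and no other call of a family or named copy or subfamily changed; copy calls numbered 60, 5 and 48 and subfamily calls 20, 3 and 20.

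Leaving out single libraries gave 54 to 65, 1 to 6 and 36 to 54 copy calls, and 14 to 19, 1 to 4 and 15 to 20 subfamily calls in the 3 contrasts. Subfamily calls in G1 against WT numbered 1 without WT replicate 2, G1 replicate 1 or G1 replicate 2. MULE-MuDR ranged from 2.21 to 2.31, 0.429 to 0.564 and 1.7 to 1.83, Mariner from -0.271 to -0.213, -0.142 to -0.0442 and -0.182 to -0.111, Tc2 from -0.42 to -0.29, -0.065 to 0.0405 and -0.408 to -0.277, and Tigger from -0.0448 to 0.00608, 0.0209 to 0.0655 and -0.082 to -0.0207. The Mariner call in G4 against G1 was lost without WT replicate 2 (-0.122), WT replicate 3 (-0.122), G1 replicate 1 (-0.111), G1 replicate 2 (-0.15), G4 replicate 1 (-0.126) or G4 replicate 3 (-0.135), and Tigger was called there without G4 replicate 1 (-0.082). The ratio ranged from 0.0129 to 0.0509, 0.0796 to 0.101 and -0.0798 to -0.0418. In G4 against WT, the subfamilies MER2 (-8.28e-05 to 0.0536) and Tigger15a (-0.0979 to 0.0392), the Tigger5b copy in Zfp57 (-0.0344 to 0.271) and the Tigger15a copy in Zcchc3 (-0.0878 to 0.399) changed sign; none of these was called.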

Other observations

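Identical values that are not whole stood in both Tigger1 copies in introns of Zfp989 and Gm26573, so reads shared by these copies had been divided between them.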
